A study of Mus musculus with 6 samples.

Results

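The 39 genes described here encode acid hydrolases of the lysosome, the carriers and activators that work with them, and proteins of the lysosomal membrane, together with the transcription factor TFEB and the lysosomal glycoprotein progranulin. They were taken by symbol from a list of lysosomal genes, whose rule uses no measured value, although the list was drawn up with earlier results of these data known. They are 39 of the 38355 genes listed in the count files. All 39 passed the filter on low counts, which left 17120 genes to be tested. For the description they were placed by function into 5 groups, namely membrane proteins (6 genes), proteases (10), glycan hydrolases (12), lipid degradation and transport (9) and regulators (2).

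Whole cortical hemispheres of untreated wild-type C57BL/6 mice were compared at 6 months (3 samples) and 16 months (3 samples) by RNA sequencing of polyadenylated RNA. The mice of both ages were kept on the same light cycle with free access to food, and no transgene or drug distinguished the groups, apart from the anesthesia that preceded dissection in all of them. The age labels of the samples and the study give 6 months for the younger mice, whereas the housing text among the labels gives 3 months. Each library is a mixture of all cortical cell types, so that fewer cells of a type and less RNA per cell cannot be told apart in any value below.

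Lysosomes are the acidic organelles in which cells break down material delivered by endocytosis, phagocytosis and autophagy. A proton pump in the membrane, the V-ATPase, keeps the lumen acidic for the hydrolases, most of which travel there carrying a mannose 6-phosphate tag. In the brain these genes are best known through neuronal storage diseases, in which loss of a single hydrolase or membrane protein lets its substrate accumulate, and TFEB is known as a transcription factor that activates many of them through E-box sequences near their start sites.

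The E-box core CACGTG was therefore looked up in the promoter windows of the members, which run from 250 bases before to 50 bases after a gene's start site in RefSeq (GRCm38.p6). Windows were found for 35 of the 39 members, the exceptions being Ctsb, Ctsh, Npc1 and Asah1. CACGTG reads the same on both strands, and it was present in 12 of the 35 members (34.3%), compared with 8.09% of the 27025 genes with a window. The longer word TCACGTG, searched on both strands and containing the core, was present in 10 members (28.6%) and in 4.29% of all genes. The palindrome TCACGTGA, which contains both shorter words, was present in 5 members (14.3%) and in 1.12% of all genes. These 5 and Lamp1, which holds 4 copies of the core, are shown as windows of 26 bases with the core in capitals, each written from 5′ to 3′ on the strand of the gene. They were chosen for these words, so that their likeness around the core follows from the choice. For genes with several copies of the core 1 is shown, and some other copies in Ctsd, Cln3 and Lamp1 lack the T before it.
Ctsd: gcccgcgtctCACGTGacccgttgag
Mcoln1: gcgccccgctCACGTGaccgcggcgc
Ctsa: tgcagatgctCACGTGaccagagcta
Cln3: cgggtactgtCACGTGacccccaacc
Gla: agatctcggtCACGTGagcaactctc
Lamp1: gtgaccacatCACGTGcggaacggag

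The Ctsd window lies at chr7:142387910-142387935 on the minus strand, with the first base of the core at position -98 from the start site. The Mcoln1 window lies at chr8:3500464-3500489 on the plus strand (position -45), and the Ctsa window at chr2:164833768-164833793 on the plus strand (position 5, just inside the transcript). The Cln3 window lies at chr7:126583342-126583367 on the minus strand (position -121), the Gla window at chrX:134601184-134601209 on the minus strand (position -194), and the Lamp1 window at chr8:13159136-13159161 on the plus strand (position -15). A match of these letters is a description of the sequence and does not show that TFEB was bound there in these samples. The other members with the core were Ctsf, Ctsl, Gaa, Glb1, Naglu and Sgsh.

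Library depth was between 29797253 and 46519280 counts on genes, of which the 39 members took between 0.497% and 0.522% per sample. Levels are given below as counts per 1000000 counts on genes after TMM scaling (CPM), and differences as log2 fold changes of 16 over 6 months from edgeR's quasi-likelihood test, in which a gene was called at a Benjamini-Hochberg adjusted p under 0.05 over all 17120 genes. Replicates 1 and 2 of 16 months stood apart from the other samples in opposite ways. Across all genes, the deviation of a sample from the mean of its age correlated with the GC content of the gene's longest transcript with r = 0.588 in replicate 1 and r = -0.58 in replicate 2, whereas the other 4 samples lay between -0.13 and 0.16. Results are therefore also given with offsets that remove the trend with GC content and transcript length in each sample.

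The lysosomal genes as a group showed little difference between the ages. Only Ctss, which encodes the protease cathepsin S, was called, and it was lower at 16 months, whereas 38 of the 39 members did not pass the test. This was 1 of 39 members (2.56%), compared with 1.67% of all genes tested called in either direction and 0.888% called lower. DESeq2's Wald test called 2 members (5.13%), Ctss and Cd63, both lower, compared with 2.72% of the 17120 genes tested in edgeR. In edgeR 6 members (15.4%) had an unadjusted p under 0.05, compared with 17.4% of all genes. The fold change was negative for 21 members and positive for 18, with a median of -0.014, beside a median of 0.0014 over all genes. The median absolute log2 fold change was 0.088 in the members and 0.10 in all genes.

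The size of difference that these samples allow was small for most members. For 33 of the 39, the 95% interval of the log2 fold change (not adjusted for the number of genes) included 0. For 21 members the whole interval lay within 0.25 of 0 on the log2 scale, and for 38 it lay within 0.5. The mean CPM at 16 months was within 10% of that at 6 months for 30 members, and the largest difference among members that were not called was 20.6%, for Cd63. A missed threshold does not show that a member was equal at both ages, and the intervals give the range that was compatible with each.

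**Figure D1:**
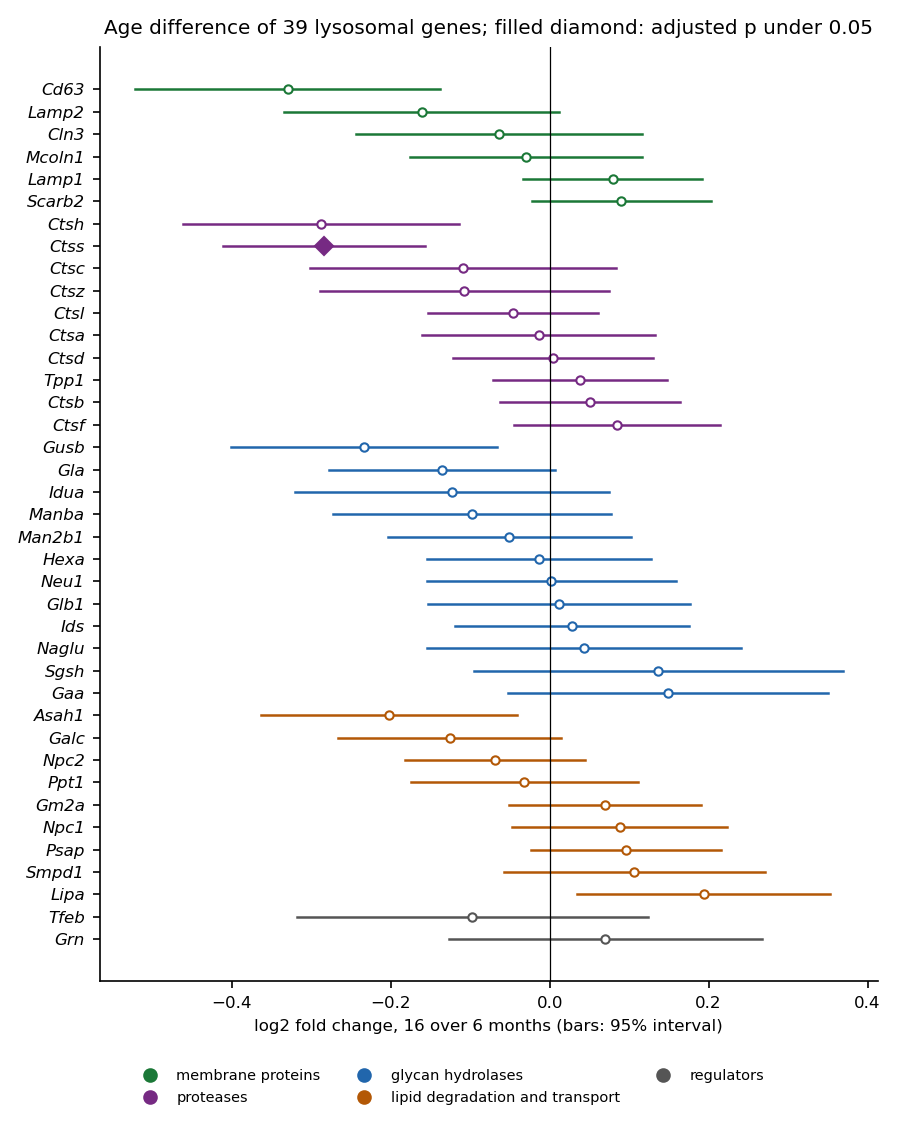
Log2 fold change of each of the 39 lysosomal genes, 16 over 6 months, with bars for the 95% interval (edgeR, not adjusted for the number of genes) and colors for the group. The filled diamond marks Ctss, the only member called (log2 fold change -0.28), and the intervals of 33 members cross the line at 0.

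The ages did not overlap, meaning that all 3 samples of one age were above all 3 of the other, in 12 members (30.8%), compared with 23.7% of all genes tested. In 9 of these 12 the 16-month samples were lower (Cd63, Ctsh, Ctsl, Ctss, Gla, Gusb, Npc2, Asah1 and Galc), and in 3 they were higher (Lamp1, Lipa and Scarb2). Over all 17120 genes tested, 1973 were apart with lower and 2086 with higher values at 16 months. The split by direction among the members was not tested. With the GC and length offsets the same test called 6 members (15.4%), compared with 14.0% of all genes. Cd63, Ctsh, Ctss, Gusb and Asah1 were then lower at 16 months and Lipa was higher. These 6 were also the members with the smallest p without offsets, and their values in every sample are given with their groups. Ctss, Ctsh, Gusb, Asah1 and Lipa share no exon bases with another annotated gene, whereas the exons of several other members lie partly opposite those of a counted gene, among them Ctsa (17.4%, Pltp and Neurl2), Ctsb (12.8%, Fdft1), Hexa (12.8%, Tmem202) and Lamp1 (9.31%, Grtp1).

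Cathepsins are the main proteases of the lysosome. Ctss (ENSMUSG00000038642, chr3:95526786-95556403, plus strand, GRCm38) encodes cathepsin S, a cysteine protease known for trimming the invariant chain in antigen presenting cells and, in the brain, expressed mainly by microglia. It was present at 92.9, 93.9 and 94.9 CPM in replicates 1 to 3 of 6 months and at 72.8, 82.1 and 76.5 CPM in those of 16 months. The 6-month samples lay close together, and all 16-month samples were below them. The mean fell from 93.9 ± 1.00 (SD, n = 3) to 77.1 ± 4.67 CPM (SD, n = 3), with a log2 fold change of -0.28 (SE 0.057, quasi-likelihood test of edgeR, Benjamini-Hochberg adjusted p = 0.040). The exact permutation test over samples gave p = 0.1 (two-sided), the smallest it can give with 3 samples against 3. By p, Ctss was at place 245 of the 17120 genes. The call depended on the samples: it was lost on leaving out 16 months replicate 3 or any replicate of 6 months, with adjusted p in edgeR of up to 0.238, while the fold change stayed between -0.33 and -0.23 under all 14 alternatives. With the GC and length offsets the log2 fold change was -0.23 (edgeR adjusted p = 0.000325).

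Ctss was the only called member, so the 250 bases before its RefSeq start site are shown whole (chr3:95526536-95526785, GRCm38.p6, plus strand). They hold no CACGTG, so that no letters are in capitals.
Ctss: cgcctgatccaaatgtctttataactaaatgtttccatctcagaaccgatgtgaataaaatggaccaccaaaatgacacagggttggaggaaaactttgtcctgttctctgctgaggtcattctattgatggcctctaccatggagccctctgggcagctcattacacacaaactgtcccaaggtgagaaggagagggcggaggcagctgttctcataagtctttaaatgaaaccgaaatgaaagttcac

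Ctsh encodes cathepsin H, an aminopeptidase of the same family. Its 6-month samples were at 12.4, 13.9 and 12.4 CPM and its 16-month samples at 9.86, 10.7 and 11.0 CPM. The ages did not overlap, but the difference did not pass the test (log2 fold change -0.29, SE 0.078, edgeR adjusted p = 0.10). With the GC and length offsets it did pass (log2 fold change -0.30, edgeR adjusted p = 0.00932).

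Ctsd, which encodes the aspartic protease cathepsin D, had the highest level per length of the proteases, at 165 CPM per kilobase of transcript. It was at 352, 345 and 353 CPM at 6 months and at 375, 332 and 345 CPM at 16 months. The 16-month samples enclosed the 6-month samples, and the log2 fold change was 0.0038 (SE 0.056, edgeR adjusted p = 0.982). The 95% interval of that change ran from -0.12 to 0.13.

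None of the other 7 proteases was called. Ctsb, a cysteine protease and second to Ctsd in level per length, had a mean of 581 ± 5.02 CPM (SD, n = 3) at 6 months and 602 ± 26.5 CPM at 16 months. Ctsl, which encodes cathepsin L, was at 75.6, 76.8 and 77.8 CPM and then at 74.3, 74.3 and 74.3 CPM, so that the ages were apart by a small margin (log2 fold change -0.046). Tpp1, the tripeptidyl peptidase missing in a childhood form of neuronal ceroid lipofuscinosis, had a log2 fold change of 0.038, and Ctsf, a cathepsin whose loss causes an adult form, one of 0.085. Ctsa, the protective protein of neuraminidase and beta-galactosidase, was at -0.014. Ctsc and Ctsz, which cut peptides from one end, were at -0.11 each, with intervals from -0.30 to 0.084 and from -0.29 to 0.074. The median over the 10 proteases was -0.030.

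Among the 6 membrane proteins, Lamp1, a heavily glycosylated protein that lines the lysosomal membrane and the usual marker of the organelle, had the highest level per length. It was at 321, 320 and 327 CPM at 6 months and at 356, 334 and 333 CPM at 16 months. All 16-month samples were above the 6-month samples, by a margin that did not pass the test (log2 fold change 0.079, SE 0.050, edgeR adjusted p = 0.461). The interval of this change, from -0.033 to 0.19, excluded an increase of 0.25 on the log2 scale.

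Cd63 encodes a tetraspanin of late endosomes, lysosomes and exosomes. It was at 22.5, 27.0 and 23.7 CPM at 6 months and at 20.4, 20.2 and 17.5 CPM at 16 months. The lowest 6-month sample was above the highest 16-month sample, and the mean went from 24.4 ± 2.31 to 19.4 ± 1.60 CPM (SD, n = 3 each). The log2 fold change of -0.33 (SE 0.086) had the largest size of the 39, and it missed the threshold in edgeR's quasi-likelihood test (adjusted p = 0.093) while passing it in DESeq2 (adjusted p = 0.046) and with the offsets in edgeR (adjusted p = 0.0122). About 16.1% of its transcript has a near-identical copy in the pseudogenes Cd63-ps and Gm12088, which had between 14 and 20 counts per sample and 0 counts, so that its counts carry that uncertainty.

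The other 4 membrane proteins were not called. Lamp2, the partner of Lamp1 that also acts in chaperone-mediated autophagy, was at 132, 138 and 138 CPM at 6 months and at 107, 134 and 124 CPM at 16 months. Its ages overlapped, and of the 16-month samples replicate 1 was the lowest and replicate 2 the highest (log2 fold change -0.16, 95% interval -0.33 to 0.012). With the offsets the log2 fold change of Lamp2 was -0.069 (edgeR adjusted p = 0.151). Scarb2, which carries beta-glucocerebrosidase to the lysosome, was higher in all 16-month samples without passing the test (log2 fold change 0.090). Mcoln1, a calcium channel of the lysosomal membrane, and Cln3, whose loss causes juvenile neuronal ceroid lipofuscinosis, were at -0.030 and -0.063.

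The 12 glycan hydrolases take sugars off glycoproteins, glycolipids and glycosaminoglycans, and none was called in edgeR, while 1 of them (Gusb) had an unadjusted p under 0.05 and DESeq2 called 0. Ids, the iduronate sulfatase of heparan and dermatan sulfate breakdown, had the highest level per length. It was at 669, 689 and 677 CPM at 6 months and at 634, 759 and 682 CPM at 16 months. As with Ctsd, the 16-month samples enclosed those of 6 months (log2 fold change 0.029, SE 0.066, edgeR adjusted p = 0.862).

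Gusb encodes beta-glucuronidase. Its 6-month samples were at 16.8, 15.7 and 16.4 CPM and its 16-month samples at 14.6, 12.6 and 14.4 CPM. The ages did not overlap, with a log2 fold change of -0.23 (SE 0.075) that did not pass the test (edgeR adjusted p = 0.155). With the offsets it was -0.26 and passed (edgeR adjusted p = 0.00808).

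Of the remaining glycan hydrolases, Gla (alpha-galactosidase A, missing in Fabry disease) was also apart between the ages, at 18.1, 18.6 and 18.5 CPM and then 15.8, 17.5 and 16.9 CPM, without passing the test (log2 fold change -0.14, 95% interval -0.28 to 0.0067). Gaa, the glycogen-degrading enzyme missing in Pompe disease, had the highest fold change of the group at 0.15, with 16-month samples as far apart as 263, 200.03 and 234 CPM. Sgsh and Naglu, both enzymes of heparan sulfate breakdown, were at 0.14 and 0.043. Hexa, the alpha subunit of beta-hexosaminidase, was at -0.013, Glb1 (beta-galactosidase) at 0.011 and Neu1 (sialidase) at 0.0020, which are among the smallest changes of the 39. Idua, Manba and Man2b1, which remove iduronic acid and mannose, were at -0.12, -0.098 and -0.051. Sgsh had the lowest level per length of all members, and 21.6% of its exon sequence lies opposite the exons of Card14, so that its reads could be split or left uncounted.

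The lipid group covers degradation and transport in the lysosome, and none of its 9 members was called in edgeR, with 2 at an unadjusted p under 0.05 (Asah1 and Lipa) and 0 called by DESeq2. Psap encodes prosaposin, the precursor of the saposins that present sphingolipids to their hydrolases, and it was the most abundant member per length. It was at 1295, 1251 and 1250.1 CPM at 6 months and at 1418, 1277 and 1364 CPM at 16 months. The second 16-month sample lay within the 6-month range, and the log2 fold change was 0.096 (SE 0.054, edgeR adjusted p = 0.391).

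Asah1 encodes acid ceramidase. It was at 82.8, 84.9 and 85.0 CPM at 6 months and at 66.9, 81.7 and 71.0 CPM at 16 months. All 16-month samples were lower, but replicate 2 lay near the 6-month samples and the difference did not pass the test (log2 fold change -0.20, SE 0.072, edgeR adjusted p = 0.193). With the offsets the log2 fold change was -0.17 and passed (edgeR adjusted p = 0.00512).

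Lipa encodes lysosomal acid lipase, which releases cholesterol and fatty acids from lipoprotein lipids. It was at 23.0, 24.4 and 23.7 CPM at 6 months and at 24.5, 28.9 and 27.8 CPM at 16 months. All 16-month samples were above the 6-month samples, the first of them only just (log2 fold change 0.19, SE 0.071, edgeR adjusted p = 0.202). With the offsets it was the single member called higher (log2 fold change 0.23, edgeR adjusted p = 0.00299).

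**Figure D2:**
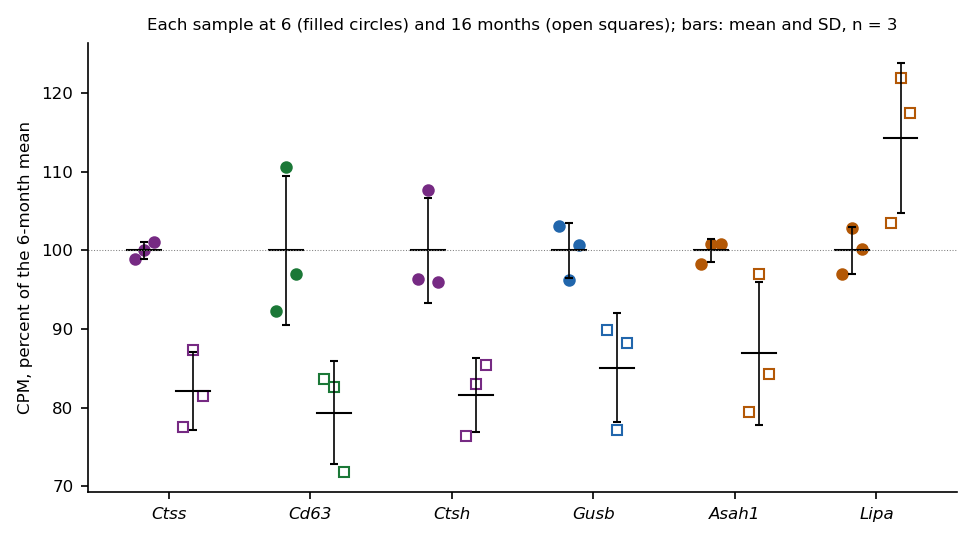
Level of the 6 members with the smallest p in each sample, as a percent of the 6-month mean of that gene, with bars for the mean and SD of 3 samples. Filled circles are 6 months and open squares 16 months, and the ages do not overlap in any of the 6 genes, with log2 fold changes from -0.33 (Cd63) to 0.19 (Lipa).

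Of the other 6 genes of lipid handling, Galc, which degrades the myelin lipid galactosylceramide, was lower in all 16-month samples (40.1, 41.0 and 39.8 CPM, then 34.1, 37.6 and 39.1 CPM) without passing the test, and its log2 fold change of -0.13 became -0.026 with the offsets. Npc2, a soluble cholesterol carrier, was apart by a small margin (log2 fold change -0.069), while Npc1, the membrane protein it hands cholesterol to, was at 0.088 with overlapping ages. Smpd1 (acid sphingomyelinase) was at 0.11, Gm2a (the activator protein for ganglioside GM2) at 0.070 and Ppt1 (palmitoyl protein thioesterase) at -0.032, none of them called.

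Neither regulator was called, and each had overlapping ages. Tfeb was at 8.11, 7.53 and 7.56 CPM at 6 months and at 8.27, 6.44 and 7.0 CPM at 16 months. The highest and the lowest of all samples were both of 16 months (log2 fold change -0.097, SE 0.099, edgeR adjusted p = 0.662). Grn, which encodes progranulin, a glycoprotein needed for normal lysosome function in neurons and microglia, was at 43.5, 39.7 and 38.4 CPM and then at 47.2, 37.1 and 43.4 CPM. Its 16-month samples likewise enclosed those of 6 months (log2 fold change 0.070, SE 0.088, edgeR adjusted p = 0.730).

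Members with CACGTG in the promoter window did not stand out by age. Their median log2 fold change was 0.0075 over 12 genes, with a range from -0.14 to 0.15, 7 positive values and 0 called in edgeR, whereas the members with a window but without the core had a median of -0.051. None of the 6 members with the smallest p was among the 12, although Ctsh and Asah1 had no window to search.

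Levels per length spanned a 492-fold range within the group. CPM was divided by the length of the longest transcript of the gene in kilobases, which gave 476 ± 9.53 for Psap, 165 ± 2.11 for Ctsd, 145 ± 1.68 for Lamp1, 136 ± 2.02 for Ids and 122 ± 1.06 for Ctsb at 6 months (SD, n = 3 each). These 5 were the members above 100 CPM per kilobase, each more than 1 SD from its neighbor. Ctss followed at 69.3 and Gaa at 57.7 CPM per kilobase. At the other end, 14 members were under 10 CPM per kilobase, the lowest being Sgsh (0.968), Naglu (2.48), Ctsc (3.27) and Tfeb (3.30). In 13 of the 38 neighboring pairs of this order the intervals of 1 SD overlapped.

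The order was nearly the same at 16 months. Of the 39 members, 21 kept their place, and the largest move was 2 places. Ctss moved from place 6 to place 7, behind Gaa, and Cd63 from place 27 to place 28, behind Lipa. The order also depends on the transcript model, since Cd63 was at place 17 with the longest protein-coding transcript and Lamp2 at place 18 instead of 9 with all exons of the gene.

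**Figure D3:**
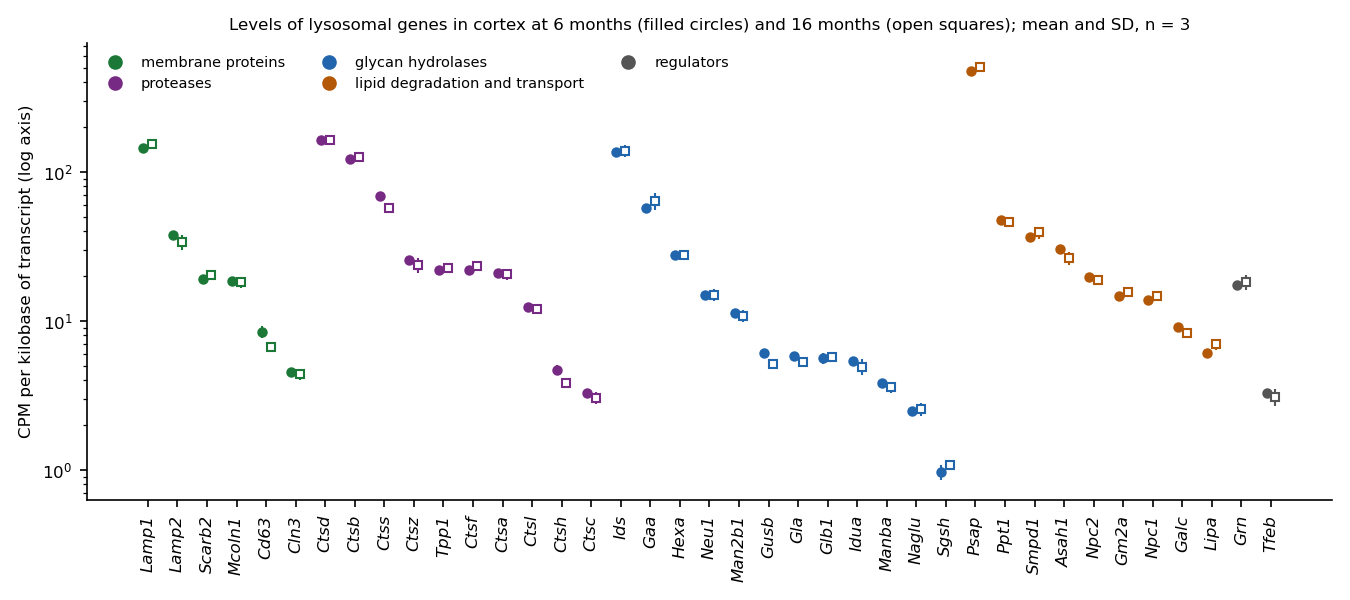
Level of each member in CPM per kilobase of its longest transcript on a log axis, at 6 months (filled circles) and 16 months (open squares), with bars for the SD of 3 samples and colors for the group. Psap is highest (476 at 6 months) and Sgsh lowest (0.968), and the symbols of the 2 ages lie close together for nearly all members.

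The samples of 16 months differed more among themselves than those of 6 months. The SD of log2 CPM was larger at 16 months in 33 of the 39 members, with a median of 0.12 compared with 0.036 at 6 months. Over all genes tested the medians were 0.13 and 0.063. With the GC and length offsets the median of the members was 0.046 at 16 months and 0.035 at 6 months.

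The spread at 16 months followed the base composition of the transcripts. GC content ran from 38.3% in Galc to 63.2% in Tfeb, with a median of 51.1%. All 19 members above the median were higher in 16 months replicate 1 than in replicate 2, and 13 of the 20 others were lower. Tfeb and Grn differed between these 2 samples by 0.36 and 0.35 on the log2 scale, Gaa by 0.40, and Lamp2 by -0.33. Across the 39 members the difference correlated with GC content with r = 0.836, a description over genes that share the same 2 libraries and are not independent, and with the offsets r was -0.31. The same difference over all genes gave r = 0.636, and r = 0.0217 with the offsets. The offsets thus left almost no trend over all genes but a negative one in the members. The difference between replicates 1 and 2 of 6 months gave r = 0.297 in the members.

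**Figure D4:**
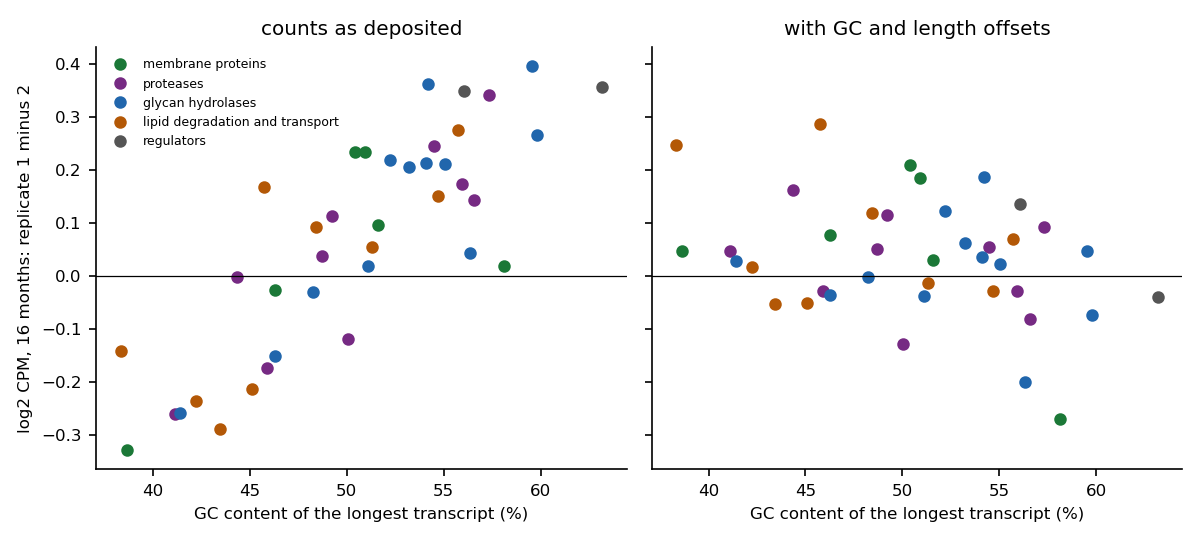
Difference in log2 CPM between replicates 1 and 2 of 16 months for each of the 39 members against the GC content of its longest transcript in percent, from the counts as deposited (left) and with the GC and length offsets (right). On the left the points rise with GC content (r = 0.836), from -0.33 for Lamp2 to 0.40 for Gaa. On the right they tend to fall with GC content instead (r = -0.31).

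Other genes placed with the lysosome were compared in 5 lists that hold none of the members. They were 19 subunits of the V-ATPase, 24 other hydrolases and activators, 20 other membrane proteins, 15 genes of mannose 6-phosphate tagging and sorting, and 19 genes of the TFEB family and of mTORC1 control at the lysosomal surface. The list of other hydrolases also holds Tpp2, which encodes a mainly cytosolic peptidase. Of these 97 genes 96 were tested, and edgeR called 0 of them, with 12 (12.5%) at an unadjusted p under 0.05, compared with 17.4% of all genes, and 2 (2.08%) called by DESeq2, compared with 2.72%. The median log2 fold change over the 96 was 0.0019, with 45 negative and 51 positive values between -0.26 and 0.29. With the offsets 15 (15.6%) were called, 10 higher and 5 lower, in a setting that called 14.0% of all genes. Tpp2 was among the 10 called higher (log2 fold change 0.15, edgeR adjusted p = 0.0134).

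No list had a called gene in edgeR without the offsets. The medians of the lists were 0.0050 for the V-ATPase, 0.045 for the other hydrolases, -0.054 for the other membrane proteins, 0.00072 for tagging and sorting and -0.0026 for the TFEB and mTORC1 genes. The ends of the range, named after their values were seen, were Atp6v1g1, a stalk subunit of the proton pump (log2 fold change -0.26, edgeR adjusted p = 0.071), and Arsb, the sulfatase of dermatan and chondroitin sulfate breakdown (log2 fold change 0.29, edgeR adjusted p = 0.085). Neither passed the test. The summed level of the other hydrolases was 1264 to 1304 CPM at 6 months and 1308 to 1470.0 CPM at 16 months. These ranges did not overlap, but the gap was smaller than the level of Tpp2 alone (means of 86.4 and 90.1 CPM). The gap may therefore depend on counting that gene. Of the 23 tested, 16 had a positive fold change. With the offsets the median of this list was 0.0019. Pld3, its most abundant gene, had means of 469 and 534 CPM. Sums of the remaining lists overlapped between the ages. The sum over all genes tested did not (990596 to 992651 CPM, then 1.00646e+06 to 1.01198e+06 CPM). Differences between the lists were not tested.

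Markers of microglia, which express Ctss strongly in the brain, were measured beside it. Over all genes tested, edgeR called 1.67% and DESeq2 2.72%. Of the 19 markers, DESeq2 called 4, and edgeR called 3, all lower at 16 months. They were Lyz2, which encodes lysozyme (log2 fold change -1.01, edgeR adjusted p = 0.000824), Tyrobp, a signaling adaptor (log2 fold change -0.36, edgeR adjusted p = 0.0290), and Aif1, which encodes the calcium binding protein IBA1 (log2 fold change -0.43, edgeR adjusted p = 0.0418). The other 16 were not called in edgeR, and the largest positive log2 fold change was that of Csf1r, at 0.25. With the offsets edgeR called 6 of the 19, in a setting that called 14.0% of all genes. These were 4 lower and 2 higher, the latter being Csf1r (edgeR adjusted p = 0.00148) and Fcrls (edgeR adjusted p = 0.00898). Laptm5 is also in a list of lysosomal genes above. The median was -0.065, and 11 of the 19 were negative. Summed over the list, the markers were between 626 and 651 CPM at 6 months and between 621 and 657 CPM at 16 months, ranges that overlapped, and each of the 19 was detected in every sample. The part of microglia in the lower Ctss was not tested.

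**Figure D5:**
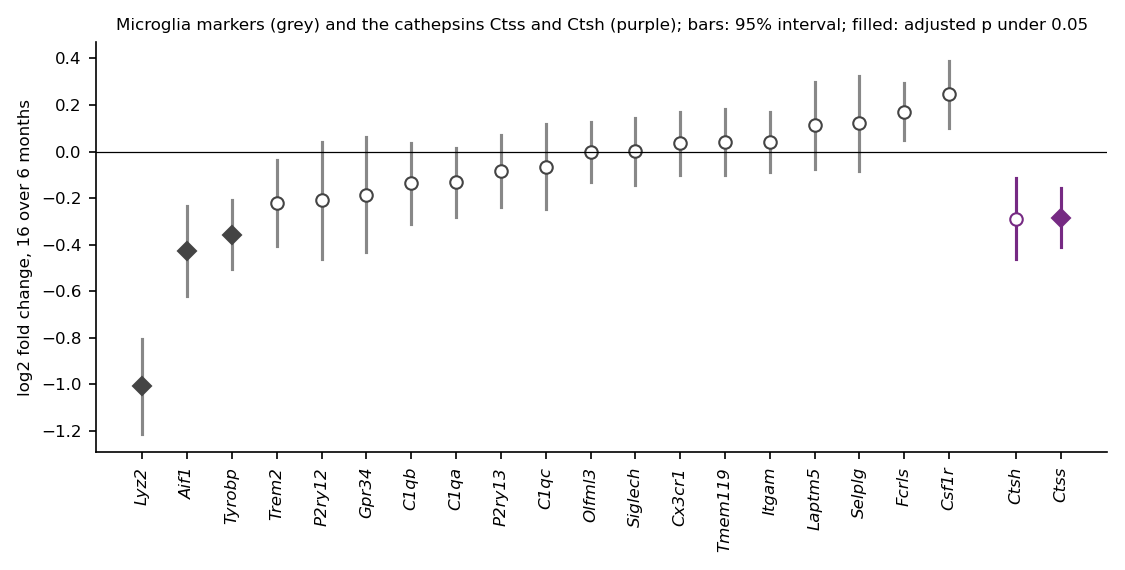
Log2 fold change (16 over 6 months) with its 95% interval for the 19 microglia markers in grey and for Ctsh and Ctss in purple, where filled diamonds mark an edgeR adjusted p under 0.05. Lyz2 (-1.01), Aif1 (-0.43), Tyrobp (-0.36) and Ctss (-0.28) are called, and the other markers lie on both sides of 0.

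Other cell types of the cortex were checked in the same way. Of all genes tested, edgeR called 1.67%, or 14.0% with the offsets, and DESeq2 called 2.72%. In edgeR 17.4% of all genes had an unadjusted p under 0.05. None of the 7 markers of perivascular macrophages was called in edgeR without the offsets (3 at an unadjusted p under 0.05, 0 by DESeq2). With the offsets edgeR called 1 of the 7, and it was lower. Their sum lay between 12.5 and 13.5 CPM and between 11.7 and 13.1 CPM. Gfap was the only one of 12 astrocyte markers called in edgeR, and it was lower (log2 fold change -0.47). DESeq2 called 5 of the 12, 7 had an unadjusted p under 0.05 in edgeR, and with the offsets edgeR called 7 (5 higher and 2 lower). The sum of the astrocyte markers was 8491 to 8901 CPM at 6 months and 9035 to 9777 CPM at 16 months. Of 12 oligodendrocyte markers, edgeR called Cldn11 and Mal higher (log2 fold changes 0.28 and 0.35) and Aspa lower (-0.57). DESeq2 called 5 of the 12, 7 had an unadjusted p under 0.05 in edgeR, and with the offsets edgeR called 8 (5 higher and 3 lower). The oligodendrocyte sums were 7477 to 7549 and 7512 to 7637 CPM. None of 10 endothelial and none of 12 neuron markers was called in edgeR without the offsets (3 and 4 at an unadjusted p under 0.05, 0 by DESeq2 in both). With the offsets edgeR called 4 endothelial (2 higher and 2 lower) and 5 neuron markers (5 higher and 0 lower). The fold change was positive for 10 of the 12 neuron markers and negative for 2. The endothelial sums were 252 to 254 and 252 to 271 CPM. The neuron sums were 12272 to 12336 and 12555 to 13052 CPM. The ranges of the astrocyte and neuron sums did not overlap between the ages.

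Some markers of tissue next to the cortex were higher at 16 months. The shares over all genes tested were 1.67% called in edgeR, 2.72% called by DESeq2 and 17.4% at an unadjusted p under 0.05. Of 7 choroid plexus markers tested, Ttr, the carrier of thyroid hormone, was higher in edgeR (log2 fold change 1.00, 1 called by DESeq2 and 3 at an unadjusted p under 0.05), with sums of 17.4 to 18.5 CPM at 6 months and 25.8 to 28.6 CPM at 16 months. Ttr alone had means of 8.95 and 17.8 CPM. The fold change was positive for 5 of the 7 and negative for 2 (Kl and Kcnj13). Of 8 thalamus markers, edgeR called Tcf7l2, Prkcd, Shox2 and Plekhg1 higher (log2 fold changes 0.44, 0.91, 4.06 and 0.32), DESeq2 called 4, and 7 had an unadjusted p under 0.05, with sums of 235 to 242 CPM and 245 to 283 CPM. How much of each lysosomal value came from any of these tissues or cell types was not tested.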

How the data were processed

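Cortical RNA of 6 mice, 3 per age, was sequenced as paired reads by the authors, who aligned them with STAR to mm10. The deposited values are raw counts per Ensembl gene, without normalization. The study's methods name HTSeq, whose summary lines close the files, whereas the submitters' processing notes name CASAVA 1.8.2, STAR 2.3.0e and featureCounts 1.5.0-p1. The Ensembl release and strand setting are not given in the sources used here. HTSeq leaves out reads that overlap exons of more than 1 gene and reads aligned to several places. Reads on no gene (22.0% to 27.7% of the uniquely aligned reads) and ambiguous ones (1.42% to 1.57%) stayed out of all totals.

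Of 38355 genes, 36602 were matched by identifier to GENCODE M21 (GRCm38) for symbol, position, length and GC content, including all 39 members. Counts were tested with edgeR 4.0.16 in R 4.3.3 (TMM, filterByExpr, quasi-likelihood test, no covariates, Benjamini-Hochberg over 17120 genes, threshold 0.05), with a prior count of 2 for log2 values. The samples are separate mice, and the biological coefficient of variation was 6.40%. Offsets were medians over 20 bins of GC content and of transcript length per sample, and 98.7% of the tested genes had values for both. Alternatives were DESeq2 1.42.0, its size factors, other filters, a replicate block, thinned counts and each sample left out. Copies were searched with blastn 2.17.0 (97% identity over 100 bases). The quasi-likelihood fits with and without offsets were tested on simulated counts that had no GC trend. The 200 changed genes were given log2 changes of 0.5 or 1 in either direction. The fits recovered 85.5% and 85% of them, and 3.933% and 3.955% of their calls were false. At a size of 1 the recovery was 93.33% in both fits, and at 0.5 it was 76.84% and 75.79%. No smaller change was simulated, although the fold changes of the 39 members were all smaller (-0.33 to 0.19). How the offsets recover changes under a GC trend is not reported here.

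Members and gene lists were chosen with earlier results of these data known, and 1 gene of the lists is not reported here. Values in every sample are given for called members, the 6 with the smallest p, the member with the highest level per length in each group, and Tfeb and Grn. Other members that are given by sample were chosen after their values were seen.

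The age labels share replicate numbers. Deviations of same-numbered samples from the means of their ages correlated with r = 0.180, 0.0958 and 0.0351 across genes, not above 0.1 in every pair, so that the numbers were not taken to pair the samples.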

Additional observations from a re-analysis of the deposited data

How the results depend on the processing

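The number of members called depended on the setting, in edgeR unless DESeq2 is named. The main fit called 1 member and 286 genes (1.67% of 17120). Without a filter 2 members (2 lower) and 648 genes (2.35% of 27569) were called, and with DESeq2's Wald test 2 (2 lower) and 468 (1.70% of 27569). With the GC and length offsets 6 members (1 higher, 5 lower) and 2389 genes (14.0% of 17120) were called. With the replicate block 3 members (3 lower) and 783 genes (4.57% of 17120) were called. With the replicate block and offsets together 10 of the 39 members (4 higher, 6 lower) and 3148 genes (18.4% of 17120) were called. Under the block Cd63 and Ctsh passed the test, and with the offsets as well Gaa, Gusb, Ids, Lipa, Npc2, Psap and Asah1. The numbers do not pair the samples by the check above, although 5 of 6 samples correlated best with their own number. Leaving out 1 sample gave 0 to 6 members (0 to 1 higher, 0 to 5 lower) and 48 to 2211 genes (0.277% to 12.7% of those tested). Without 16 months replicate 1 it gave 4 members (Cd63, Ctss, Gusb and Lipa), beside 5.73% of the genes tested. Without replicate 2 it gave 6 (Lamp2, Cd63, Ctsh, Ctss, Gaa and Asah1), beside 12.7%. It gave 0 without 16 months replicate 3 or any one replicate of 6 months. These last fits called 48 to 58 genes in all (0.277% to 0.335% of those tested). DESeq2's size factors, a minimum of 10 counts in every sample and thinned counts each called Ctss alone, beside 1.69%, 1.67% and 1.51% of the genes tested. Ctss was called under 10 of 14 alternatives. The median SD at 16 months was 0.046 with the offsets.

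The sign changed for members near 0, and leaving out 1 sample moved Ctsd between -0.047 and 0.041, Ids between -0.043 and 0.087 and Grn between -0.011 and 0.16. Ctsd was at -4.25e-05 without a filter, -0.0071 with the offsets, -0.0073 with the offsets and replicate block, -0.0071 without 6 months replicate 2 and -0.047 without 16 months replicate 1. Grn was at -0.011 without 16 months replicate 1, and Ids at -0.043 without 16 months replicate 2. The cause of these shifts was not tested. Levels per length on the longest coding transcript were added after seeing the data. The 3 samples per age limit the precision. The p-values measure only the spread between these samples, in which differences between mice and between libraries cannot be told apart.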
